A study of Drosophila melanogaster with 2 samples.

Results

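The sirtuin genes of Drosophila melanogaster are described here by how much of their DNA was recovered with dBigH1, the germline linker histone, in testis chromatin. The genes were chosen by symbol. Sir2 (also called Sirt1), Sirt2, Sirt4, Sirt6 and Sirt7 are 5 of the 15421 genes in the deposited table, and each matched 1 row. The 11 genes within 50 kb of Sirt6 serve as its local background. The family was taken up because Sirt6 has one of the highest dBigH1 ratios in these data, so the ratios below are a description and carry no test.

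There were 2 samples, each 1 library from whole testes of adult males of the w1118 stock, with no treatment. One is chromatin precipitated with an antibody to dBigH1, and the other is input DNA with no antibody, so the stock is shared by both. Per the labels' protocols, testes were pooled, with 2000 dissected and 1000 in each sonicated pool, and accessory glands were removed by hand. Sequencing depth was 12747726 reads for input and 2864636 for dBigH1. No value has a replicate check. Whole testes mix germ cells of all stages with somatic cells, and fewer cells carrying dBigH1 at a gene and less dBigH1 per cell cannot be told apart.

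Sirtuins are enzymes that remove acetyl and other acyl groups from lysines of histones and other proteins and consume NAD in doing so. Sir2 is the founding member of the family, known in flies for its part in heterochromatic silencing and in repression by Hairy. In mammals, SIRT6 and SIRT7 are nuclear, with SIRT6 acting on histone H3 and SIRT7 associated with the nucleolus, SIRT2 is mainly cytoplasmic and deacetylates tubulin, and SIRT4 is mitochondrial. Linker histones such as dBigH1 sit on the nucleosome where DNA enters and leaves, and dBigH1 takes the place of somatic H1 in some germ cells and in the early embryo. The table measures DNA of these genes, not their expression.

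Among the 5 sirtuin genes, Sirt6 stood far above the median gene, Sir2, Sirt2 and Sirt7 lay near it, and Sirt4 lay below it. The measure used throughout is the log2 read ratio, that is the log2 of dBigH1 reads over input reads, each divided by its library total, minus the same value for the median of all 15421 genes. A 95% exact Clopper-Pearson interval follows in parentheses and covers counting error only. A gene at least 1.5-fold from the median gene is called above or below. Over all genes 16.2% were called above and 17.3% below. Of the sirtuin genes, 1 was called above (Sirt6) and 1 below (Sirt4). At a 2-fold threshold, passed upward by 7.69% and downward by 6.76% of all genes, the same 2 sirtuin genes were called. With library totals alone and no centring on the median gene, 3.03% of all genes were above and 76.8% below, and Sirt6 was still above while the other 4 sirtuin genes were below.

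Sirt6 (FBgn0037802) lies on chromosome 3R from 6081071 to 6087462 in build dm3, on the minus strand, and is the longest of the 5 at 6392 bp. It had 452 dBigH1 reads (95% exact Poisson interval 411 to 496) against 575 input reads (529 to 624). Scaled for gene length and library size as RPKM, the deposited unit, this was 24.7 for dBigH1 and 7.06 for input. Its log2 read ratio was 2.81 (2.63 to 2.99), which is 7.02-fold that of the median gene (6.19 to 7.95). A gene with its input reads and the ratio of the median gene would have had 64.4 dBigH1 reads, 387.6 fewer than were counted.

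Sirt6 was among the highest genes in the dBigH1 library while its input was moderately below the median. Its input RPKM was at percentile 30.5 of all genes and 0.814 of the median of the other 3R genes, while its dBigH1 RPKM was at percentile 99.0 and 5.88 times the 3R median. Among the 3430 other genes of 0.5 to 2 times its length, the median log2 read ratio was 0.00, 8.25% were called above, and 1 gene was higher. Over all genes 24 had a higher read ratio, but 21 of these had fewer than 50 dBigH1 reads, with a median of 5.

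Sir2 (FBgn0024291, 2L, 13165551 to 13169551) had 54 dBigH1 reads (40.6 to 70.5) against 513 input reads (470 to 559). The dBigH1 RPKM was 4.71 and the input RPKM 10.1, the highest input RPKM of the family. The log2 read ratio was -0.09 (-0.52 to 0.32), so that Sir2 could not be told from the median gene at this depth. It is the one sirtuin gene that overlaps another listed gene. The overlap with DnaJ-H, an Hsp40-type co-chaperone gene, covered 522 bp, or 13.0% of Sir2, and reads there may be counted in both. DnaJ-H was at -0.68 (-1.30 to -0.12).

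Sirt7 (FBgn0039631, 3R, 24881654 to 24884926) had 31 dBigH1 reads (21.1 to 44.0) and 324 input reads (290 to 361). With an RPKM of 3.31 against 7.77, its log2 read ratio was -0.23 (-0.81 to 0.31). Sirt2 (FBgn0038788, 3R, 16154192 to 16155751) had 14 dBigH1 reads (7.65 to 23.5) and 179 input reads (154 to 207). Its RPKM was 3.13 against 9.0 and its log2 read ratio -0.52 (-1.42 to 0.27). Both intervals include the median gene.

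Sirt4 (FBgn0029783, X, 5558661 to 5560002), the shortest of the family at 1342 bp, had 4 dBigH1 reads (1.09 to 10.2) against 96 input reads (77.8 to 117). At the ratio of the median gene it would have had 10.8 dBigH1 reads. With 1.04, its dBigH1 RPKM was at percentile 1.66 of all genes and was 0.479 of the median of the other X genes, 2.17. Its input RPKM was 5.61, at percentile 15.2 of all genes, where the median of the other X genes was 4.74. The log2 read ratio was -1.43, with an interval from -3.33 to -0.02 whose upper end almost reaches the median gene. Over all genes 9.41% had an interval wholly below the median gene. Low ratios were common among short genes. Of the 7356 other genes of 0.5 to 2 times its length, 24.3% were called below, and their median was -0.17.

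In order of the read ratio the family ran Sirt6, Sir2, Sirt7, Sirt2, Sirt4. The interval of Sirt6 lay apart from those of all other 4 genes, which was largely set by its choice for a high ratio. The intervals of the other 4 overlapped one another in all 6 pairs, so their order is not resolved at this depth. Summed, those 4 genes had 103 dBigH1 reads and 1112 input reads, a log2 read ratio of -0.27 (-0.58 to 0.02). Sirt6 exceeded this sum by 3.09 on the log2 scale, or 8.49-fold. The difference to single genes ran from 2.90 against Sir2 to 4.24 against Sirt4.

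**Figure D1:**
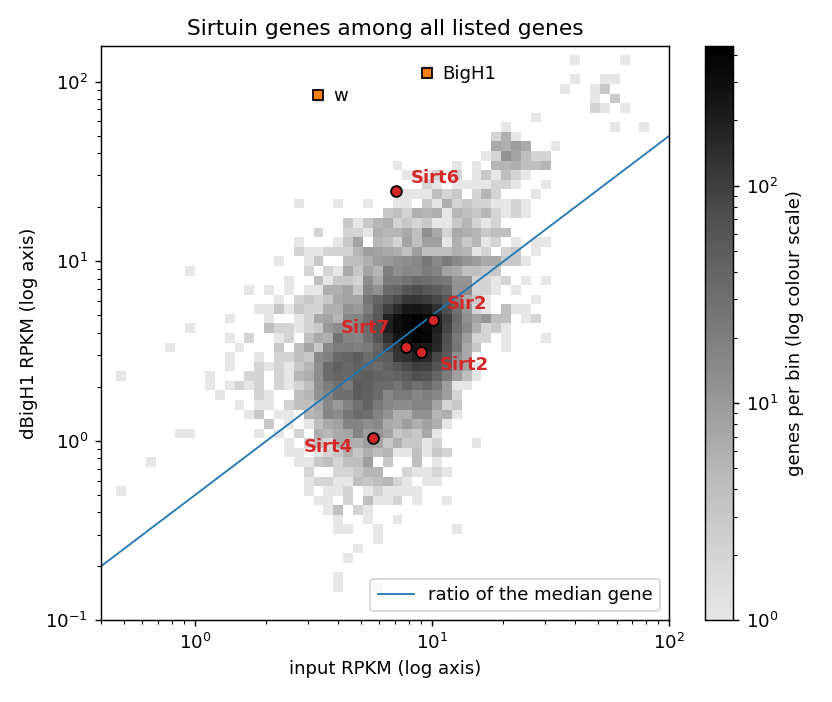
Input RPKM (horizontal, log axis) against dBigH1 RPKM (vertical, log axis) for all 15421 genes, binned in grey with darker bins holding more genes, with the 5 sirtuin genes as red points, w and BigH1 as orange squares, and the ratio of the median gene as a blue line. Sirt6, at 7.06 and 24.7, lies above the cloud of genes of similar input, Sir2, Sirt2 and Sirt7 lie within the cloud, and Sirt4 lies in its lower part.

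The genes next to Sirt6 did not share its ratio. On the side of lower coordinates CG3999 ends 80 bp from Sirt6, and it had 38 dBigH1 reads against 403 input reads. Its log2 read ratio was -0.25 (-0.77 to 0.23). On the other side pont begins 371 bp away. It encodes pontin, an ATPase of the Tip60 and INO80 chromatin complexes, and had 22 dBigH1 reads against 225, a ratio of -0.20 (-0.90 to 0.44). Sirt6 was 3.01 above the higher of these flanks on the log2 scale, or 8.04-fold.

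Farther out, the long genes of the window were moderately above the median gene. The ratio of genes of such length in general was not computed, so this is not read as particular to the window. CG42795, 4071 bp from Sirt6 and 25524 bp long, was at 1.09 (0.95 to 1.22) on 558 dBigH1 reads. Syn, the 31754 bp gene of the synaptic vesicle protein synapsin, was at 1.18 (1.06 to 1.30) on 702. Timp, which encodes an inhibitor of metalloproteinases and lies inside Syn, was at 0.64 (0.38 to 0.89) on 155, and the 2 genes may share reads. CG43143, named Nuak in RefSeq for the protein kinase, spans 43177 bp on the other side and was at 0.45 (0.33 to 0.57) on 647.

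The short genes of the window scattered around the median gene on few reads. CG12420 was the lowest of the window at -1.33 (-2.98 to -0.06), on 5 dBigH1 reads against 112. The highest value, 1.35, was that of a serine tRNA gene inside CG43143 (FBgn0011970) with 2 dBigH1 reads against 7, and its interval from -1.95 to 3.74 spans both the median gene and Sirt6. The remaining 3 neighbours, CG12817, CG34107 and CG6293, lay between -0.12 and 0.40, within 1.5-fold of the median gene.

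Of the 11 neighbours, 4 were called above (36.4%, against 16.2% of all genes), among them the tRNA gene with 2 dBigH1 reads, and 1 below (9.09%, against 17.3%). Their median was 0.40, and none had a higher ratio than Sirt6. For 10 of them the whole interval lay below that of Sirt6, the tRNA gene being the exception. Over all genes 0.16% had a higher ratio than Sirt6, so these counts are not particular to the neighbours. The share of all genes with an interval below that of Sirt6 was not computed. Sirt6 was 2.41 above the neighbour median on the log2 scale, or 5.31-fold. Among the 5 neighbours that overlap no other listed gene the median was -0.12, and Sirt6 was 2.93 above it. With the reads of all neighbours summed, a measure chosen after the data were seen that the long genes dominate, the local ratio was 0.76 and the difference 2.05.

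**Figure D2:**
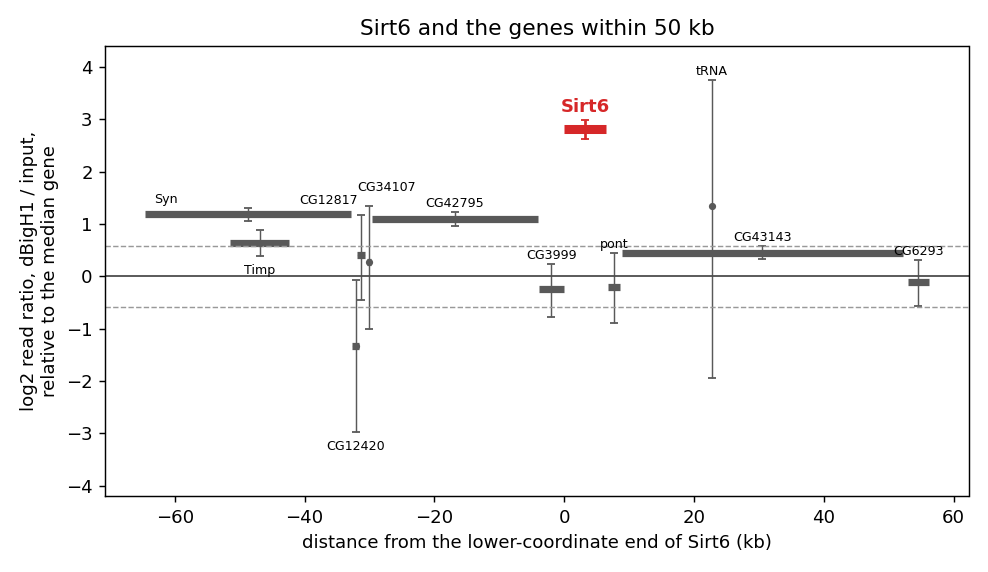
Log2 read ratio relative to the median gene (vertical) of Sirt6 (red) and the 11 genes within 50 kb (grey) against distance in kb from the lower-coordinate end of Sirt6 (horizontal). Bars span each gene, vertical lines are 95% counting intervals, the solid line marks the median gene and dashed lines 1.5-fold. Sirt6 at 2.81 stands between CG3999 at -0.25 and pont at -0.20, and the long genes Syn and CG42795 lie near 1.

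Sir2 and Sirt7 lay among their neighbours, whereas Sirt2 and Sirt4 lay toward or below the lower end of theirs. Both of the latter were also low among all genes. The 22 genes within 50 kb of Sir2 had a median of -0.02, with 2 called above (9.09%, against 16.2% of all genes) and 4 below (18.2%, against 17.3%). Along with 56.4% of all genes, 12 of the 22 had a higher ratio than Sir2. Its nearest non-overlapping neighbours were Sfmbt, a Polycomb group gene 97 bp away at 0.04 (-0.30 to 0.35), and CG5204, named kmg in RefSeq, at -0.23 (-0.83 to 0.31). The 17 neighbours of Sirt7 had a median of -0.15, and Sirt7 was 0.08 lower on the log2 scale than this median. The cullin gene Cul-5, 65 bp away, was at -0.33 (-0.83 to 0.12), and CG11843, 94 bp away on the other side, was at 0.41 (-0.34 to 1.10).

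Around Sirt2 there were 8 genes with a median of 0.16, and 7 of them were higher than Sirt2, as were 80.2% of all genes. The exception was MtnC, a metallothionein gene, at -2.01 on 1 dBigH1 read (-7.35 to 0.56), and the next lowest was CG4367 at -0.22 (-1.32 to 0.72). The nearest, CG4360, was at 0.65 (0.32 to 0.97). Sirt2 was 0.68 lower on the log2 scale than its neighbour median, which is past 1.5-fold, though its interval overlapped those of 5 of the 8 neighbours. All 18 neighbours of Sirt4 were higher than Sirt4, and their median was -0.30. Since 97.3% of all genes had a higher ratio than Sirt4, this count is not particular to the neighbours. CG4119, which begins 124 bp from Sirt4, was itself called below at -0.80 (-1.49 to -0.18), on 22 dBigH1 reads. The closest values were those of CG3160 at -1.20 (-2.09 to -0.43) and Rab-RP4 at -1.16 (-3.07 to 0.25). On its 4 reads the interval of Sirt4 overlapped those of 14 of the 18 neighbours. The shares of all genes whose intervals overlap those of Sirt2 and Sirt4 were not computed. These overlap counts are therefore not read as results about the neighbours.

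**Figure D3:**
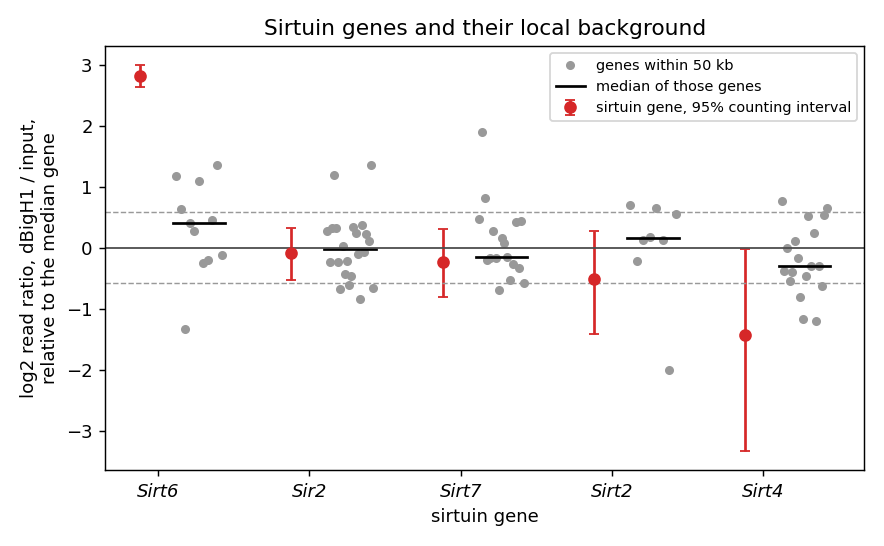
Log2 read ratio relative to the median gene (vertical) for each sirtuin gene (red, with its 95% counting interval) beside the genes within 50 kb of it (grey points, in order of position) and their median (black bar). The solid line marks the median gene and dashed lines 1.5-fold. Sirt6 at 2.81 lies above all 11 of its neighbours, and Sir2 and Sirt7 lie among theirs. Sirt2 lies below 7 of its 8, and Sirt4 at -1.43 lies below all 18, with a wide interval. Of all genes, 80.2% were higher than Sirt2, 97.3% were higher than Sirt4 and 0.16% were higher than Sirt6.

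The rise at Sirt6 relative to its flanks was compared with that of other genes, by a measure chosen after the data were seen. For each gene with at least 50 dBigH1 reads whose nearest non-overlapping gene on each side had at least 10, the higher flank's log2 read ratio was subtracted from the gene's own. Over the 2828 such genes the median difference was -0.05. Sirt6 ranked 2 at 3.01, after BigH1 (listed as CG3509), the gene of dBigH1 itself, at 3.35. The next that passed the filters was CG42249 at 2.49, followed by CG33267 at 2.33, Cyp309a2 at 2.19 and kcc at 2.17. The gene w, at 2.91, was left out because its flank CG12498 had 4 dBigH1 reads. BigH1 would have had 18.8 dBigH1 reads at the ratio of the median gene, so it passed through its high ratio. The rank of Sirt6 uses again the ratio for which it was taken up, and is a description only. Sir2, the only other sirtuin gene with enough reads, was at -0.13 and ranked 1608.

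The genes closest to Sirt6 in read ratio were listed among the 3865 genes with at least 50 dBigH1 reads, where Sirt6 ranked 4. Over all genes it ranked 25. This filter uses the dBigH1 library itself, so a high ratio helps a gene to pass. At the ratio of the median gene the other genes named here would have had from 6.5 (FBgn0085802) to 46.7 (CG32795) dBigH1 reads. All of them would have failed the filter, so the list is a description only. Above it were w, the eye pigment transporter gene, at 5.66, BigH1 at 4.54, and FBgn0085802, a gene of the unplaced scaffolds with no symbol in the table, at 3.0. Below it were CG32795, which lies 31 bp from w, at 2.76, FBgn0085750, on the unplaced scaffolds, at 2.74, and FBgn0262983, on 3R, at 2.65. Only w and BigH1 had intervals apart from that of Sirt6. The input RPKM of w was 3.32, at percentile 1.67 of all genes. This gene lies inside kirre, which was at 1.51 (1.47 to 1.56), and the 2 genes may share reads. The higher flank of w was CG32795 at 2.76, and that of BigH1 was the checkpoint gene Rad17 at 1.20 (0.74 to 1.63), whereas both flanks of Sirt6 were below 0.

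Sirt6 also differed from those genes on the authors' own scale. In the authors' deposited table the MAnorm column, a standardized score, gave Sirt6 2.02, and 3.22% of genes had a higher score, against 0.16% with a higher read ratio. The other 6 genes just named had scores from 3.96 to 5.58. Of the 50 genes with the highest read ratios, 4 had a score below that of Sirt6. Median input RPKM of those 50 genes was 3.72, so Sirt6 at 7.06 was higher in input than most of them. A low input raises the ratio by which the 50 were picked, so this contrast is partly built into that choice. Their median was 8 dBigH1 reads, and 3 of the 50, Sirt6 included, had at least as many as Sirt6. The scores of Sir2, Sirt2, Sirt4 and Sirt7 in the authors' deposited table were -0.63, -0.70, -0.70 and -0.08, around a median over all genes of -0.08. On that scale Sirt7 stood above Sir2, the reverse of their order by read ratio, and Sirt2 and Sirt4 were nearly equal. A cut of 0.58 score units from that median, which is not 1.5-fold, was passed upward by 27.0% and downward by 24.1% of all genes. Sirt6 passed it upward, and Sirt2 and Sirt4 passed it downward.

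Genes that work with or against the sirtuins were examined as 4 lists of 30 genes in all. Of these genes 4 were called above and 4 below, or 13.3% in each direction, close to the 16.2% and 17.3% of all genes, and the median was 0.09. All 30 intervals lay wholly below that of Sirt6. Sirt6 was taken up for its high ratio, exceeded by 0.16% of all genes, so this was largely set by that choice. It is not read as a result about the lists, and the share of all genes with such an interval was not computed.

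The other histone deacetylases, which use zinc in place of NAD, numbered 5. None was called above (against 16.2% of all genes) and 1 below (20%, against 17.3%), with a median of -0.02. The lowest was HDAC6, a largely cytoplasmic enzyme, at -0.90 (-1.57 to -0.29) on 23 dBigH1 reads. The highest was HDAC4, at 0.54 (0.32 to 0.76). HDAC1, listed as Rpd3, the main class I enzyme of fly corepressor complexes, was at 0.13 (-0.41 to 0.64).

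Of 8 genes of NAD metabolism, 2 were called above (25%, against 16.2% of all genes) and none below (against 17.3%). Their median was 0.27. Parp, which consumes NAD to build poly(ADP-ribose), was the highest at 1.23 (1.16 to 1.31), on 1923 dBigH1 reads. It lies on the heterochromatin scaffold 3RHet and was the only one of the 30 genes on such a scaffold. Naam, the nicotinamidase that clears the sirtuin product nicotinamide, was at 0.70 (0.55 to 0.84). Nmnat, which makes NAD from its mononucleotide, was the lowest at -0.43 (-1.13 to 0.20).

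Histone acetyltransferases, the enzymes of the opposite reaction, numbered 9, with a median of -0.24. None was called above (against 16.2% of all genes) and 3 below (33.3%, against 17.3%), on a list too short to read as a difference. Tip60, the catalytic subunit of the complex that also holds pontin, was the lowest at -0.94 (-1.83 to -0.17). Elp3, of the Elongator complex, was at -0.83 (-1.72 to -0.05), and enok, of the MYST family, at -0.68 (-1.09 to -0.29). The highest was chm, also a MYST enzyme, at 0.50 (0.26 to 0.73).

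The genes of proteins reported to bind or be acted on by fly Sir2 numbered 8, with a median of 0.20. Of these, 2 were called above (25%, against 16.2% of all genes) and none below (against 17.3%). The bHLH repressor gene dpn was the highest at 0.70 (0.24 to 1.14), and the corepressor gene CtBP was at 0.61 (0.42 to 0.80). The lowest was E(z), the H3K27 methyltransferase gene of the Polycomb group, at -0.22 (-0.74 to 0.26).

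**Figure D4:**
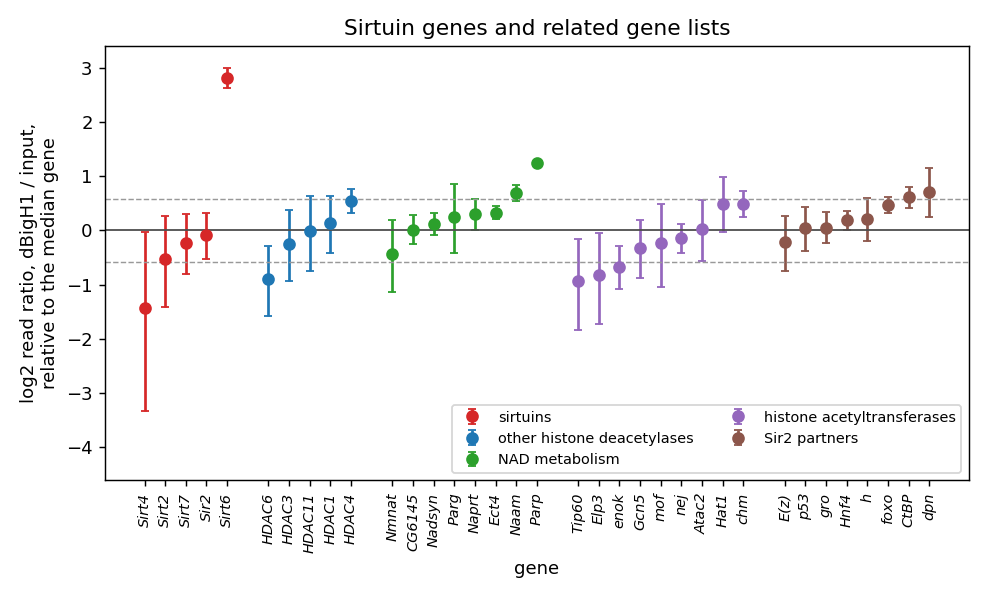
Log2 read ratio relative to the median gene (vertical) with 95% counting intervals for the 5 sirtuin genes (red) and the 30 genes of the 4 related lists (other colours), ordered by value within each list. The solid line marks the median gene and dashed lines 1.5-fold. Sirt6 at 2.81 lies above every other gene shown, and the next highest is Parp at 1.23.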

How the data were processed

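The submitters' processing notes name CASAVA 1.9, FastQC 0.10, Bowtie2 and R 2.15, with dm3 as the build. The rule that assigned reads to genes, and the handling of reads matching several places, are not given in the sources consulted. The authors deposited 1 log2 RPKM value per gene and library. With 1 subtracted after exponentiation, 100% of values were whole multiples of 1 read within 0.01, so the values are log2(RPKM + 1) and reads and library totals were recovered from them. The authors deposited a further column, a MAnorm fold change by its header, which has a mean near 0 and an SD of 0.999 and was read as a standardized score.

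Read ratios, intervals and ranks were computed with Python 3.11.15, NumPy 2.4.6, pandas 2.3.3 and SciPy 1.17.1 over all 15421 genes with no filter. The functions were tested on simulated data. With 1 library a group, no p-value was computed. Intervals cover counting error only and treat reads as independent. Libraries were amplified with 18 PCR cycles and carry no molecular identifiers, so intervals would be too narrow where copies of the same fragment were counted. Positions of reads within a gene are not in the values used, so the spread of reads along Sirt6 is not known. No listed gene was at 0 reads in either library. Neighbours are all genes reaching within 50 kb. Gene names were checked against a RefSeq table of Release 6, whose coordinates were not used.

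The members, lists and tests were chosen with earlier results of these data known. Named genes were the sirtuins, the neighbours of Sirt6 that were called, nearest or extreme, the called and extreme list members, and the 3 genes above and below Sirt6 in ratio. Other names were chosen after their values were seen, among them the flanks of the other sirtuin genes, HDAC1 and the genes ranked by their rise over both flanks.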

Additional observations from a re-analysis of the deposited data

How the results depend on the processing

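Sirt6 stayed the 1 sirtuin gene called above in all 12 alternatives, with a log2 ratio from 1.81 (library totals alone) to 2.84 (median of its arm), and Sir2, Sirt2 and Sirt7 were called below in some. Sirtuin genes below numbered 0 with a pseudocount of 5, where Sirt4 was at -0.29, 2 on the MAnorm score (cut at 0.58 score units, not 1.5-fold) or against genes within 50 kb, and 4 with library totals alone or centring on genes of RPKM at least 5 in both libraries. Sirt6 minus its neighbours was 2.41. It was 2.18 on the deposited log2 values, 1.61 with a pseudocount of 5, 1.29 on the MAnorm score, 2.93 with neighbours overlapping no other gene, and, added after the data were seen, 2.05 with summed neighbours and 3.01 against the nearest genes. Neighbours above and below, 4 and 1, became 2 and 0 with a pseudocount of 5, 7 and 3 on the score, 2 and 4 when centred on genes of RPKM at least 5, 0 and 6 with library totals alone, 2 and 0 within 20 kb, 6 and 2 within 100 kb, 1 and 0 without overlapping genes, and 3 and 0 with at least 10 dBigH1 reads. List genes above and below, 4 and 4, became 2 and 2 on the deposited log2 values, 1 and 0 with a pseudocount of 5, 1 and 10 when centred on genes of RPKM at least 5, 0 and 22 with library totals alone, and 1 and 0 at 2-fold. On the MAnorm score they were 6 and 6. Of all genes, 3.03% were above and 76.8% below with library totals alone, and 7.69% and 6.76% at 2-fold. On the MAnorm score 27.0% were above and 24.1% below. For the other scalings the share of all genes was not computed, so those counts are not read as results about the members. Centring on genes of higher RPKM, or none, shifts every gene down by construction, while a larger pseudocount shrinks ratios of genes with low RPKM. On that score the median of the acetyltransferase list turned from -0.24 to 0.14. Depth limits Sirt2 and Sirt4 most, with 14 and 4 dBigH1 reads. No paired analysis was possible because each group has 1 library.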
